A study of Peromyscus maniculatus with 6 samples.

Results

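The 10 genes described here encode enzymes of amino acid synthesis and of the mitochondrial folate pathway. The first make asparagine (Asns), serine (Phgdh, Psat1 and Psph) and proline (Aldh18a1 and Pycr1). In mitochondria Shmt2 passes carbon units from serine to folate, and Mthfd2, Mthfd1l and Aldh1l2 act on the units that folate carries. The 10 genes were chosen by gene symbol, and each matched 1 of the 24281 genes in the deposited count table. RNA came from cultured ear fibroblasts of 3 Peromyscus maniculatus, the deer mouse, all of the BW stock, aged 4 weeks and numbered BW35770, BW35772 and BW35773. The cells were plated at 300000 per well and grown for 24 h. From each animal there was 1 control library, given as control in the labels with no vehicle named, and 1 library from cells given tunicamycin for 5 h, at a concentration labelled as 5 mg/mL that could not be checked here. No transgene or gene deletion is given for either group.

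Tunicamycin stops the attachment of N-linked sugars to proteins, so that misfolded proteins build up in the endoplasmic reticulum and the unfolded protein response starts. Its PERK arm phosphorylates the translation factor eIF2alpha, which lowers protein synthesis in general but raises translation of the transcription factor ATF4. In mouse and human cells ATF4 is known to bind the genes of amino acid synthesis and of the mitochondrial folate pathway, which is why these enzymes are often read as a sign of the integrated stress response. Serine made from glycolysis gives its side-chain carbon to folate in mitochondria, and the product leaves as formate for purine and thymidylate synthesis, while proline is made from glutamate and is abundant in the collagen that fibroblasts secrete.

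The libraries held 37852385 to 49352126 counts on genes, and the 10 genes had between 446 and 19088 counts per library, so counting error was small beside the spread between animals. Of 9 fibroblast markers in the table all were expressed. Levels are in CPM, counts scaled to a common library size by TMM, the trimmed mean of M values. The summed level of the 9 was 13690 to 17760 CPM in controls and 13670 to 15900 with tunicamycin. Vim alone stood at 8732 to 9763 CPM in controls. Some of the others differed by animal. In the controls of BW35770, BW35772 and BW35773 Thy1 stood at 751.8, 85.2 and 118 CPM, and Col3a1 at 499.9, 1469 and 1482 CPM. Of the markers of other cells, 4 of 5 keratinocyte, 3 of 4 endothelial, 4 of 5 leukocyte, 3 of 4 skeletal muscle and 5 of 5 melanocyte and Schwann genes were below 1 CPM in every library, among them Ptprc, Krt5, Krt1 and Epcam. The exceptions stood in controls at 12.1 CPM for Krt14, 2.4 for Pecam1, 127.8 for Cd68 and 20.7 for Acta1. Neither of 2 adipocyte markers was below 1 CPM, with Adipoq at 21.4 and Fabp4 at 14.7 CPM in controls. Krt14 was called lower with tunicamycin in the fit with the animal as a block (log2 change -1.04 ± 0.18, edgeR adjusted p = 0.02) and not without it (edgeR adjusted p = 0.622), and its part in the results was not tested. The 5 cartilage markers together were high for cells labelled as fibroblasts and differed by animal, although Matn1 was below 1 CPM in every library. Their sum was 1834 CPM in the control and 2044 in the tunicamycin library of BW35770, against 8158 and 8688 in BW35772 and 7003 and 6016 in BW35773. In a principal component analysis the tunicamycin library of BW35772 lay farthest out on the first component (52.4, with the others between -46.7 and 14.6).

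After 5 h of tunicamycin 4 of the 10 genes had risen and 0 had fallen (edgeR quasi-likelihood test, adjusted p under 0.05 over 13503 genes, n = 3 animals a group), against 1.78% of all tested genes that rose and 0.792% that fell. The 4 were Mthfd2, Psat1, Asns and Phgdh, which rose between 2.58-fold and 4.82-fold. With the animal as a block, which pairs the libraries of an animal, Aldh1l2 was the fifth, at a background of 3.07% of tested genes called higher, and 0 of the 10 fell in that fit as well, at a background of 2.4%. In 8 of the 10 genes every tunicamycin library lay above every control library, which was so for 12.3% of all tested genes; Mthfd1l and Pycr1 were the exceptions. The median log2 fold change of the 10 genes was 0.95, and that of all tested genes -0.01. Together the 10 genes took 0.0678, 0.0753 and 0.0776% of the counts in the controls of BW35770, BW35772 and BW35773, and 0.138, 0.168 and 0.17% in their tunicamycin libraries. Their summed share was thus 2.16 times as large with tunicamycin. In bulk RNA a change in the cells that make up a culture and a change in RNA per cell cannot be told apart.

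**Figure D1:**
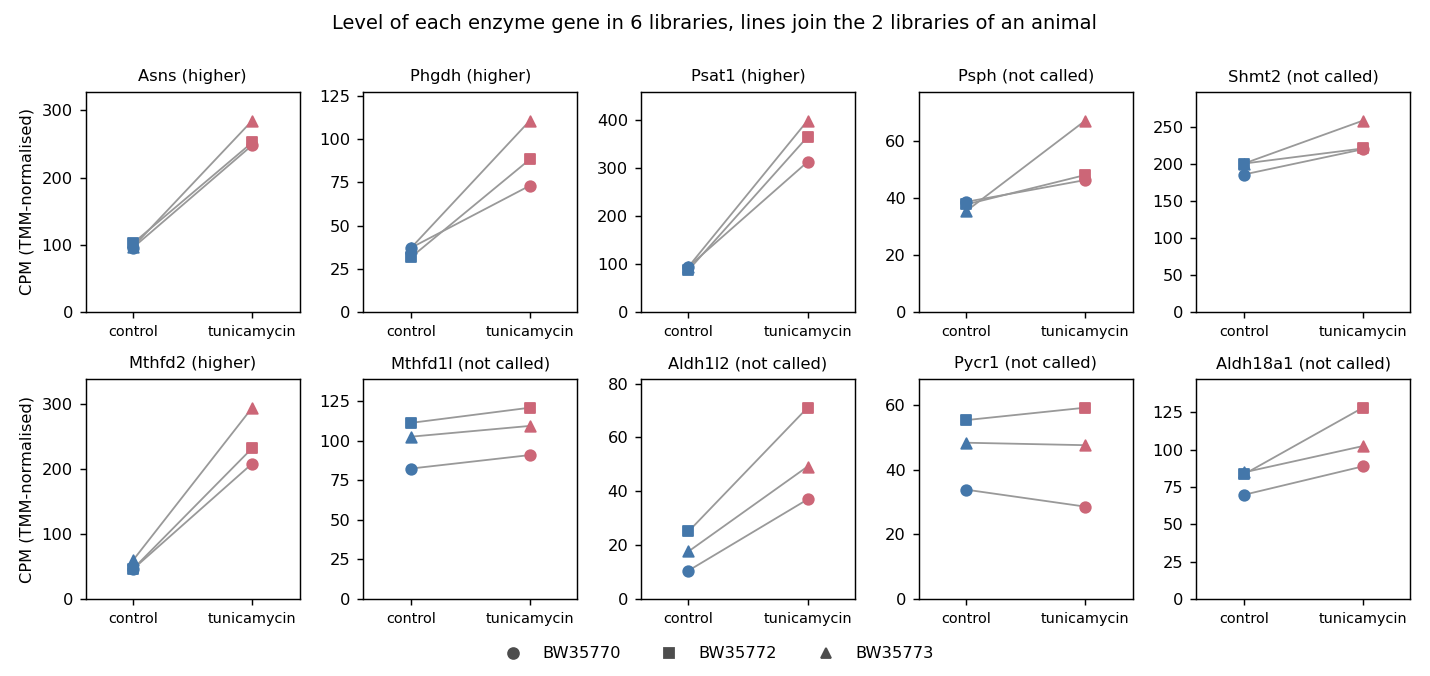
TMM-normalised CPM of each of the 10 genes (vertical axes from 0, a separate scale per gene) in the control and tunicamycin library of each animal, joined by a line, with the call of the edgeR test without a block in each title. The lines of Asns, Psat1, Mthfd2, Phgdh and Aldh1l2 climb most, and those of Psph, Shmt2 and Aldh18a1 climb less, in all 3 animals. Those of Mthfd1l climb slightly and those of Pycr1 go both ways, and both genes lie apart by animal.

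Asns makes asparagine from aspartate and glutamine (ENSPEMG00000024254, scaffold KI615627.1, bases 2740995 to 2760534, minus strand, 12 exons). It stood at 95.9, 102.4 and 97.2 CPM in the controls of BW35770, BW35772 and BW35773, and at 248.1, 252.3 and 284.7 CPM in their tunicamycin libraries. The controls lay close together, and each tunicamycin library was more than double any control. The log2 fold change of tunicamycin over control was 1.41 ± 0.11 (SE, edgeR adjusted p = 0.00118), and Asns was called in each of 19 alternative fits, with adjusted p-values up to 0.0186. Neither of the asparagine-degrading enzymes was called. Asrgl1 went from 15.5 ± 4.17 to 14.4 ± 2.09 CPM (SD, n = 3; edgeR adjusted p = 0.901), and Aspg from 10.3 to 9.11 CPM (edgeR adjusted p = 0.851). Nars, which loads asparagine on its tRNA, had a log2 change of 0.47 ± 0.13 and no call (edgeR adjusted p = 0.119).

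The serine pathway has 3 steps from the glycolytic intermediate phosphoglycerate, and the first 2 genes rose. Phgdh, phosphoglycerate dehydrogenase, starts it (ENSPEMG00000004948, scaffold KI615497.1, bases 3303012 to 3347709, minus strand, 12 exons). Its control levels in BW35770, BW35772 and BW35773 were 37.1, 31.6 and 37 CPM, and those with tunicamycin were 73.2, 88.4 and 110.8 CPM. All treated libraries were about double the controls or more, and they were more spread out than the controls. Its log2 change was 1.37 ± 0.17 (edgeR adjusted p = 0.0105). Leaving out the control of either BW35772 or BW35773 ended the call (edgeR adjusted p = 0.0713 and 0.0707), in fits that did not pair the animals, and adjusted p was 0.00416 with the block; over 19 alternatives it ran from 4.08e-10 to 0.0713.

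Psat1, the aminotransferase of the second step, had the largest gain per length (RPKM) (ENSPEMG00000022279, scaffold KI615319.1, bases 1574027 to 1600246, minus strand, 9 exons). It went from 94.5, 87.4 and 94.4 CPM in the controls to 313, 365.3 and 399.1 CPM with tunicamycin, in the order BW35770, BW35772, BW35773. The controls differed little and the groups were far apart in every animal. On the log2 scale the change was 1.96 ± 0.13 (edgeR adjusted p = 0.000642), and the call held in each of 19 alternative fits.

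Psph, the phosphatase that releases serine in the last step, moved less (ENSPEMG00000011314, scaffold KI615328.1, bases 8586801 to 8602711, plus strand, 7 exons). Controls were at 38.7, 37.8 and 35.4 CPM and tunicamycin libraries at 46.3, 48.1 and 67.2 CPM, again in the order BW35770, BW35772, BW35773. The groups did not overlap, and the library of BW35773 stood above the other treated libraries. Its log2 change of 0.53 ± 0.17 (95% interval 0.15 to 0.92) missed the threshold (edgeR adjusted p = 0.168, and 0.12 with the block). It was called in 2 of 19 alternatives, and adjusted p reached 0.465 in the others. The first had the block and the exon length trend removed (edgeR adjusted p = 0.0221). The second kept the block and left out both libraries of BW35772 (0.0394), so it rests on fewer animals. Leaving out only the control or only the tunicamycin library of BW35772, without a block, gave edgeR adjusted p = 0.401 and 0.145. Within each library the ratio of Psat1 to Psph was higher with tunicamycin in 3 of 3 animals, by 1.47, 1.71 and 1.16 on the log2 scale, and that of Phgdh to Psph by 0.72, 1.14 and 0.66. Both had an exact permutation p = 0.1 (two-sided), the smallest that 3 against 3 libraries allow, and an adjusted p = 0.13 over 13 ratios. Because both ratios were chosen after the values were seen, these p-values are description only.

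In the mitochondrial folate pathway Mthfd2 and Aldh1l2 had larger fold changes than Shmt2 and Mthfd1l. Shmt2 takes the carbon unit from serine and leaves glycine (ENSPEMG00000015669, scaffold KI615347.1, bases 239457 to 244678, plus strand, 12 exons). Its levels were 186, 200.8 and 200.8 CPM in the controls of BW35770, BW35772 and BW35773, and 220.2, 221.3 and 258.9 CPM with tunicamycin. The groups did not overlap but lay close. This was a log2 change of 0.25 ± 0.12, with a 95% interval from -0.02 to 0.52, and was not called (edgeR adjusted p = 0.355) in the main or any of 19 alternative fits. Its exons share 151 bases with Ndufa4l2 on the opposite strand. That gene stood at 434.4 ± 192.5 CPM in controls and 204.2 ± 76.4 with tunicamycin. The main fit did not call it (edgeR adjusted p = 0.238). Pairing the libraries of each animal made Ndufa4l2 a gene called lower (log2 change -1.05 ± 0.17, edgeR adjusted p = 0.0164). Its log2 differences in BW35770, BW35772 and BW35773 were -0.91, -1.53 and -0.72. The part of reads from the shared bases was not tested.

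Mthfd2, the dehydrogenase and cyclohydrolase of the next steps, had the largest fold change of the 10 genes (ENSPEMG00000007283, scaffold KI616050.1, bases 400363 to 411994, minus strand, 8 exons). It stood at 46.2, 46.5 and 59.9 CPM in the controls and at 208.6, 232.4 and 294.7 CPM with tunicamycin, in the order BW35770, BW35772, BW35773. The rise was alike in the animals, with log2 differences within the pairs of 2.17, 2.32 and 2.30. The log2 change of Mthfd2 was 2.27 ± 0.18 (edgeR adjusted p = 0.00118) and ranked 34 among all tested genes, and it was called in each of 19 alternatives.

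Mthfd1l, the mitochondrial synthetase that sets formate free, had the smallest fold change of these 4 genes (ENSPEMG00000012428, scaffold KI615416.1, bases 7730155 to 7922755, minus strand, 28 exons). Controls were at 82.3, 111.1 and 102.4 CPM and tunicamycin libraries at 90.8, 120.7 and 109.2 CPM for BW35770, BW35772 and BW35773. The groups overlapped, and BW35770 was lowest in both. Over the 3 animals the log2 change was 0.12 ± 0.16 (95% interval -0.25 to 0.49, and -0.13 to 0.36 with the block; edgeR adjusted p = 0.83).

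Aldh1l2, which oxidises the formyl unit to carbon dioxide and makes NADPH, had the lowest level per length of the 10 (ENSPEMG00000016164, scaffold KI615956.1, bases 240924 to 286093, plus strand, 24 exons). It stood at 10.5, 25.1 and 17.7 CPM in the controls of BW35770, BW35772 and BW35773, and at 37, 71 and 49.2 CPM with tunicamycin. The groups did not overlap, and the animals kept their order, each at about triple its own control. The log2 change of 1.56 ± 0.35 missed the threshold when animals were not paired (edgeR adjusted p = 0.0699). With the animal as a block it was 1.59 ± 0.13 and was called (edgeR adjusted p = 0.00112). Aldh1l2 was called in 8 of 19 alternatives, over which adjusted p ran from 2.94e-09 to 0.266. The smallest came from the block fit without both libraries of BW35772, which rests on fewer animals and had a larger SE of 0.20.

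Ratios within a library set these enzymes against each other and against their relatives, free of library scaling. Mthfd2 to Shmt2 was higher with tunicamycin by 1.93, 2.18 and 1.93 on the log2 scale in BW35770, BW35772 and BW35773, Mthfd2 to Mthfd1l by 2.03, 2.20 and 2.21, and Aldh1l2 to Mthfd1l by 1.66, 1.38 and 1.38. Mthfd2 to Mthfd2l, a paralog with the same mitochondrial activity and only 1.76 ± 0.24 CPM in controls, went from 4.81 ± 0.36 to 7.32 ± 0.26 on the log2 scale. Shmt2 to Shmt1, the cytosolic form, went from 3.86 ± 0.17 to 4.23 ± 0.15, without overlap of the groups. For each of these 5 ratios the exact permutation p was 0.1 (two-sided, the smallest possible) and the adjusted p was 0.13 over 13 ratios. Mthfd2 to Shmt2, Mthfd2 to Mthfd1l and Aldh1l2 to Mthfd1l were chosen after the values were seen, so their p-values are description only. The ratios of Mthfd1l to cytosolic Mthfd1 and of Aldh1l2 to cytosolic Aldh1l1 overlapped between the groups (exact permutation p = 0.3 each, adjusted p = 0.325), and Aldh1l1 was at 0.38 ± 0.27 CPM in controls, too low for a firm ratio.

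Neither gene of the proline pair was called. Aldh18a1 encodes the synthase that turns glutamate into the precursor of proline (ENSPEMG00000013055, scaffold KI615601.1, bases 247046 to 297258, plus strand, 20 exons). Its levels were 69.7, 83.5 and 84.8 CPM in the controls of BW35770, BW35772 and BW35773, and 88.8, 128.1 and 102.4 CPM with tunicamycin. The groups did not overlap, and BW35772 gained most. Its log2 change of 0.42 ± 0.16 (95% interval 0.05 to 0.80) missed the threshold (edgeR adjusted p = 0.261, and 0.1 with the block). It was called in 2 of 19 alternatives, and adjusted p reached 0.563 in the others. The first had the block and the exon length trend removed (edgeR adjusted p = 0.0439). The second kept the block and left out both libraries of BW35773 (0.0338), so it rests on fewer animals. Leaving out only the control or only the tunicamycin library of BW35773, without a block, gave edgeR adjusted p = 0.474 and 0.207.

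Pycr1, the mitochondrial reductase that completes proline (ENSPEMG00000012558, scaffold KI615659.1, bases 1443726 to 1450166, plus strand, 8 exons), varied mainly by animal. It was at 33.8, 55.3 and 48.3 CPM in the controls and 28.6, 59.1 and 47.6 CPM with tunicamycin, in the order BW35770, BW35772, BW35773. The groups overlapped fully and the pairs went both ways, by -0.24, 0.10 and -0.02 on the log2 scale. Its change on the log2 scale was -0.02 ± 0.29 (edgeR adjusted p = 0.986), and its 95% interval was -0.69 to 0.64, or -0.35 to 0.24 with the block. Its sign changed in 5 of 19 alternatives, among them library totals alone as the scaling (0.04). Prodh, which breaks proline down, was at 1.1 ± 0.23 CPM in controls and 0.67 ± 0.37 CPM with tunicamycin (edgeR adjusted p = 0.606). Aldh18a1 to Pycr1 was higher with tunicamycin by 0.59, 0.52 and 0.30 on the log2 scale, and Pycr1 to Prodh by 1.04, 0.32 and 0.85 (exact permutation p = 0.1 each, adjusted p = 0.13). The ratio of Aldh18a1 to Pycr1 was chosen after the values were seen, so its p-value is description only.

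**Figure D2:**
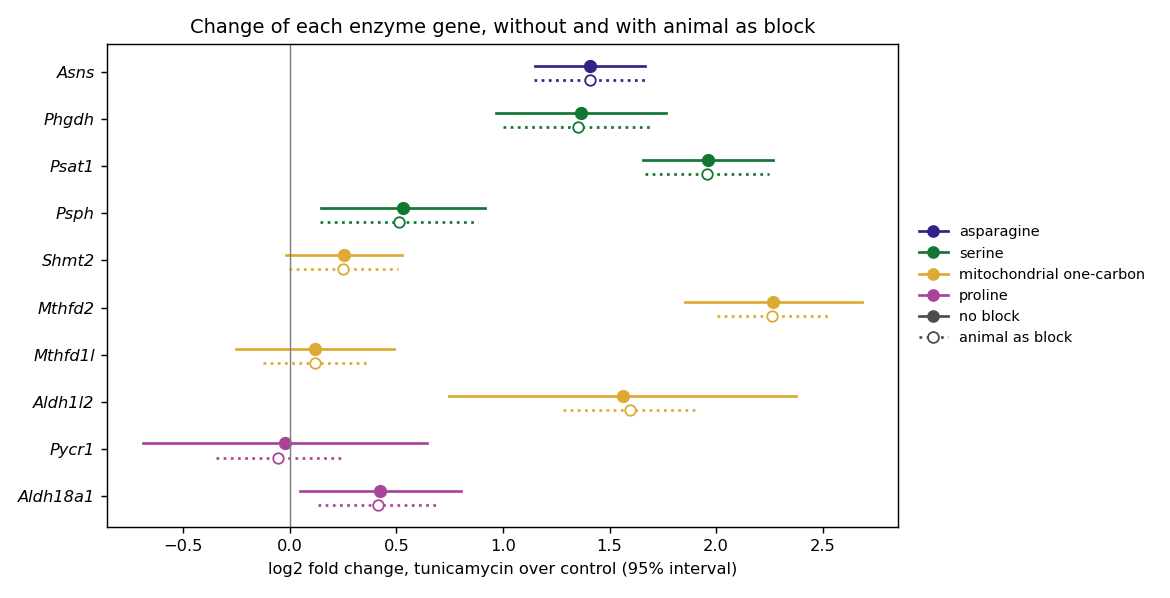
Log2 fold change of tunicamycin over control for each of the 10 genes with its 95% interval, coloured by pathway, from the fit without a block (filled, solid) and with the animal as a block (open, dotted). Mthfd2, at 2.27, and Psat1, at 1.96, lie farthest right, the interval of Aldh1l2 narrows from 0.75 to 2.38 without the block to 1.28 to 1.91 with it, and the intervals of Shmt2, Mthfd1l and Pycr1 include 0 in both fits.

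**Figure D3:**
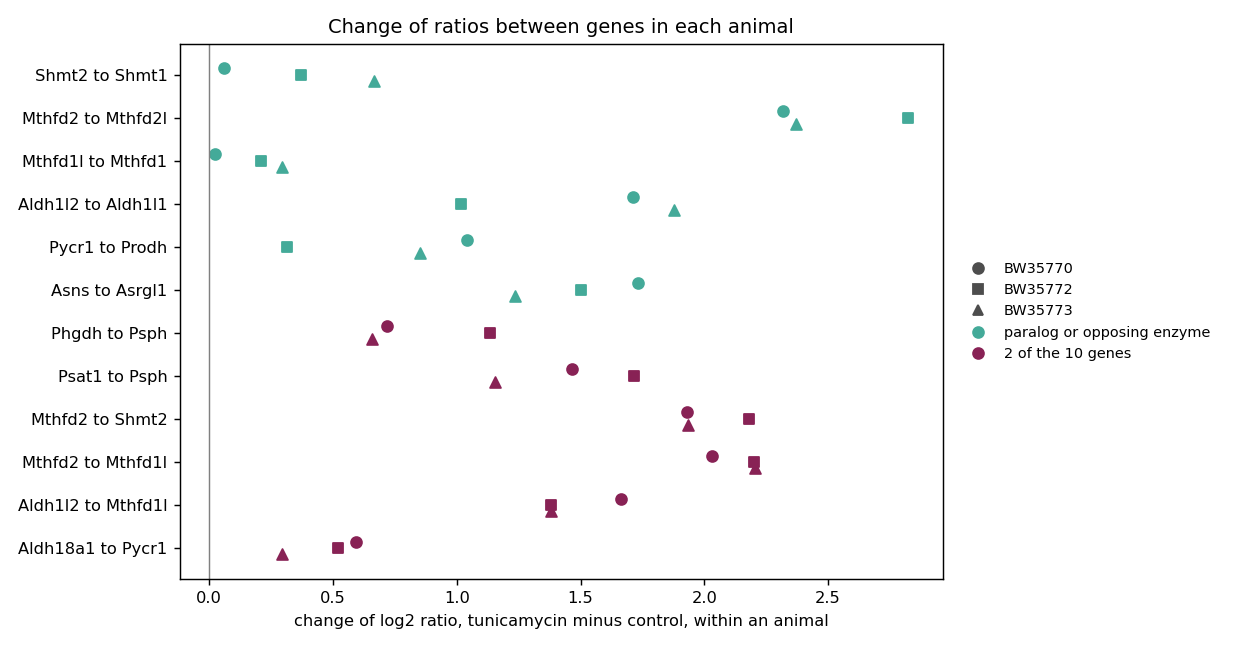
Change of the log2 ratio of 2 genes within a library, tunicamycin minus control, for each animal (marker shape), with ratios to a paralog or opposing enzyme in green and ratios among the 10 genes, which were chosen after the values were seen, in purple. All points lie right of 0; ratios with Mthfd2 lie near 2 or above, and those of Shmt2 to Shmt1 and Mthfd1l to Mthfd1 reach nearest to 0.

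The 10 genes differed in how much of their variation followed the animal. The treatment took 99% of the variation in log2 CPM over the 6 libraries for Asns, 98.8% for Psat1, 97.2% for Mthfd2 and 92.7% for Phgdh. The animal took 96% for Pycr1 and 89.6% for Mthfd1l, and 35.3% for Aldh18a1 and 23.8% for Aldh1l2. Over all tested genes the medians were 19.4% for treatment and 40.5% for animal. In Shmt2, Mthfd2, Mthfd1l, Aldh1l2 and Pycr1 the animals came in the same order in both groups, and BW35770 was lowest in each of these 5. Some places rest on near ties. Controls of Shmt2 were at 200.8 CPM in both BW35772 and BW35773, and those of Mthfd2 at 46.2 in BW35770 and 46.5 in BW35772. How many of all tested genes keep such an order was not counted. The summed cartilage markers were also lowest in BW35770 in both groups, as were Col2a1, Acan and Comp. Sox9 was lowest there in controls but highest there with tunicamycin (237.7 CPM, against 208.9 in BW35772 and 223.9 in BW35773). The part of the cartilage markers in the levels of the 5 genes was not tested.

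Levels can be compared between genes only per length, as RPKM (CPM per kilobase of exon). In controls Shmt2 was highest at 93.8 ± 4.09 RPKM (SD, n = 3), Asns next at 49.7 ± 1.75 and Psat1 after it at 41.9 ± 1.85, and the ranges of these did not touch. Pycr1, Psph, Mthfd1l, Mthfd2, Aldh18a1 and Phgdh followed between 29.5 and 22 RPKM, each overlapping its neighbour in this order, and Aldh1l2 was lowest at 3.21 ± 1.31. With tunicamycin Psat1 led at 163.3 ± 19.7 RPKM, and Asns (132 ± 10.1), Mthfd2 (118.1 ± 21.4) and Shmt2 (111.8 ± 10.6) followed, each overlapping the next. Below a gap came Phgdh at 56.7 ± 11.8, and Aldh1l2 was again lowest at 9.48 ± 3.12. Mthfd2 thus moved from the seventh to the third place, and Shmt2 from the first to the fourth.

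**Figure D4:**
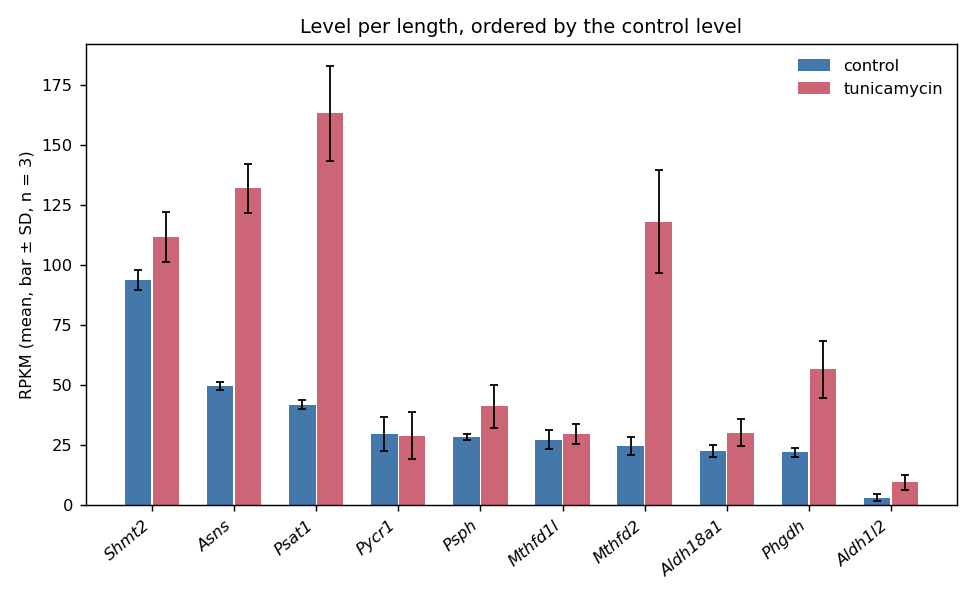
Mean level per length (RPKM, bars from 0, error bars SD, n = 3 libraries) of the 10 genes in control and tunicamycin cultures, ordered by the control level. Shmt2 leads in controls at 93.8 RPKM, and Psat1 leads with tunicamycin at 163.3 RPKM.

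Of 64 other tested genes of serine, folate, methionine, proline, asparagine, glutamate and purine metabolism, 4 rose and 1 fell. Their median log2 fold change was -0.01, and with the block 5 rose and 2 fell. Of all tested genes 1.78% rose and 0.792% fell, and with the block 3.07% rose and 2.4% fell. The listed genes that rose without the block were carriers of small neutral amino acids and an aminotransferase. Slc38a2, a sodium-coupled importer of alanine, serine, proline and glutamine, went from 256.8, 187.7 and 209.5 to 771, 763.4 and 631.3 CPM in BW35770, BW35772 and BW35773, a log2 change of 1.73 ± 0.16 (edgeR adjusted p = 0.0027). Slc1a4, which carries alanine, serine and cysteine, rose by 1.57 ± 0.21 on the log2 scale (edgeR adjusted p = 0.0131, and 0.061 and 0.0946 without the control of BW35772 or BW35773; range over 19 alternatives 2.87e-10 to 0.0946). Slc1a5, its relative for glutamine, rose by 1.58 ± 0.17 (edgeR adjusted p = 0.00503). In these carriers too the groups did not overlap.

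Gpt2, the mitochondrial alanine aminotransferase, went from 43.2, 34.9 and 38.1 to 151.1, 197.6 and 203.6 CPM, a log2 change of 2.25 ± 0.16 (edgeR adjusted p = 0.000755) close to that of Mthfd2. Slc25a13, a mitochondrial carrier that exchanges aspartate for glutamate, fell by 0.98 on the log2 scale (SE 0.18), from 22.8, 25.2 and 26.8 to 15, 13.1 and 9.97 CPM. It was called lower at edgeR adjusted p = 0.0403, and the call was lost in 7 of 19 alternatives, with adjusted p up to 0.207: library totals alone, each control or the tunicamycin library of BW35770 or BW35772 left out, and both libraries of BW35770 left out. With the block Got1, the cytosolic aspartate aminotransferase, was also called higher (0.66, edgeR adjusted p = 0.0256) and Glul, glutamine synthetase, lower (-0.78, edgeR adjusted p = 0.00961).

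By list, 2 of 10 tested genes of serine and glycine metabolism rose and 0 fell. In asparagine, aspartate and glutamate metabolism 2 of 15 rose and 1 fell, against 1.78% and 0.792% of all tested genes. In edgeR 0 genes were called, with or without the block, in the folate, methionine, proline and purine lists. They held 12 (folate one-carbon cycle, mitochondrial Mthfd2l among them), 8 (methionine cycle and transsulfuration), 8 (proline and ornithine metabolism) and 11 (purine synthesis) tested genes. Their median log2 fold changes were 0.01, 0.06, -0.26 and -0.06, in that order. In the folate list Fpgs, which adds glutamates to folate, had a log2 change of 0.46 ± 0.16 (edgeR adjusted p = 0.221). The methionine list was led by Mtr at 0.59 ± 0.33 and Ahcyl2 at -0.19 ± 0.16, and the purine list by Gmps (0.24 ± 0.12) and Impdh2 (0.26 ± 0.18), with edgeR adjusted p-values between 0.42 and 0.684. In the proline list the ornithine carrier Slc25a15 had a log2 change of -0.37 ± 0.17 and was not past the threshold (edgeR adjusted p = 0.361).

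**Figure D5:**
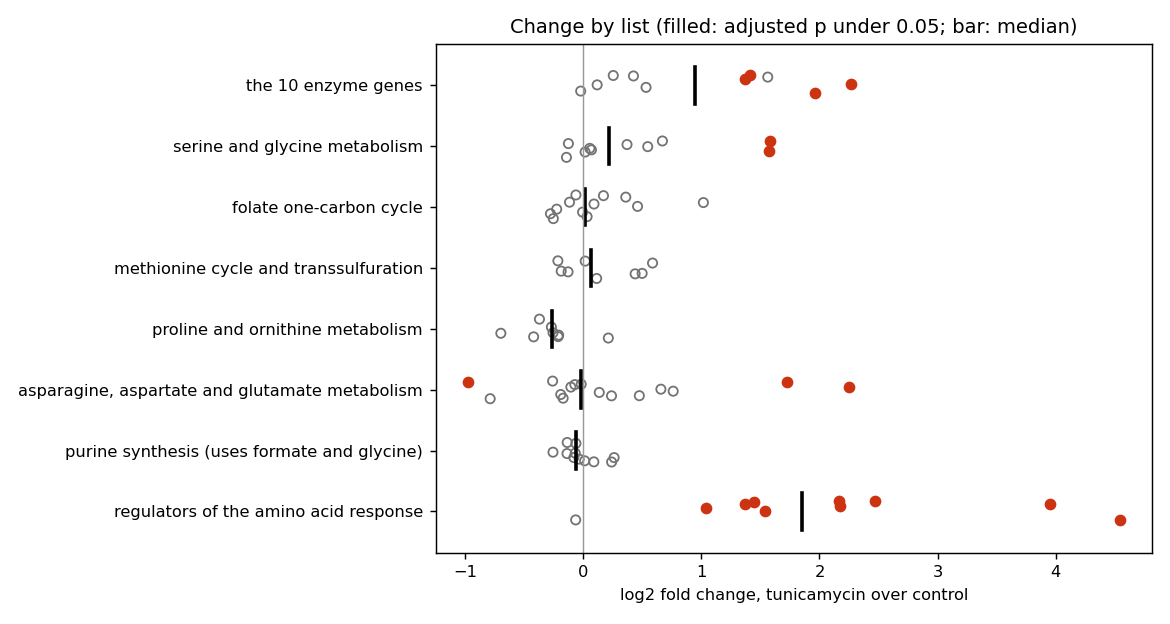
Log2 fold change of tunicamycin over control for the 10 genes and for each tested gene of 7 related lists; filled points passed an edgeR adjusted p under 0.05 without a block, and black bars are medians. The folate, methionine, proline and purine lists hold no filled point, while 9 of 10 regulators are filled.

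Among regulators of the amino acid response 9 of 10 tested genes rose and 0 fell, against 1.78% and 0.792% of all tested genes. Atf4 went from 213, 168 and 180.5 CPM to 1053, 921.7 and 1133 CPM in BW35770, BW35772 and BW35773, a log2 change of 2.47 ± 0.15 (edgeR adjusted p = 0.000507). Ddit3, its target CHOP, rose by 3.95 ± 0.23 and Trib3, a pseudokinase that restrains ATF4, by 4.54 ± 0.14. Myc, a growth factor-induced transcription factor, rose by 2.18 ± 0.13. Atf3 rose by 2.17 ± 0.22, Eif2ak3, which encodes PERK itself, by 1.54 ± 0.21, Nupr1 by 1.44 ± 0.20, Cebpg, a dimer partner of ATF4, by 1.37 ± 0.18, and Atf5 by 1.04 ± 0.18. The calls of Eif2ak3, Nupr1, Cebpg and Atf5 were each lost in 3 or 4 of 19 alternatives that left out libraries, with adjusted p up to 0.0863, 0.102, 0.091 and 0.167. Eif2ak4, which encodes the amino acid sensor GCN2, had a log2 change of -0.07 ± 0.14 (edgeR adjusted p = 0.9).

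The mean profile of the 10 genes over the 6 libraries (log2 CPM centred per gene) was followed most closely by Asns, Psat1, Mthfd2 and Phgdh among them, with Pearson's r of 0.97, 0.97, 0.98 and 0.97, and least by Mthfd1l (0.56) and Pycr1 (0.21). Each of the 10 is itself part of this mean, in which genes with large changes weigh most. Their r values therefore largely restate their fold changes. Of 8898 other named genes the 6 most like the mean profile had r from 0.993 to 0.997. They were Ficd, which modifies the chaperone BiP, the ubiquitin ligase Wwp2, the Mediator kinase Cdk8, the vesicle coat gene Sec23b, Tnfaip1 and the calcium pump Atp2a3. Ficd rose by 2.14 ± 0.23 on the log2 scale (edgeR adjusted p = 0.00494) and Wwp2 by 0.85 ± 0.14 (0.0271), whereas Cdk8, with 0.49 ± 0.11, was not called (0.0795). These r values rest on 6 libraries that share the contrast of treatment.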

How the data were processed

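The deposited table holds whole-number read counts per gene, 1 column per library. Per the submitters' processing notes, reads went through STAR 2.6.1, SAMtools 1.6 and featureCounts (Subread); build and annotation release: not given in the sources used here, and strand use is known only from the table's title. Coordinates and names are as deposited, and exon length comes from the same table as annotated by the authors. No reference sequences were used.

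Genes were filtered with filterByExpr (minimum count 10, minimum total 15), leaving 13503. Counts were scaled by TMM and tested two-sided with edgeR 4.0.16 (R 4.3.3), Benjamini-Hochberg over all tested genes, without a block. The SE is the log2 fold change over the square root of F. Within-library values are log2 CPM with a prior count of 2. Ratios were tested by exact permutation over libraries. Of 13 ratios 6 were chosen after their values were seen, and the adjusted p of the others depends on these 6 as well. DESeq2 1.42.0 and limma 3.58.1 (voom) were alternatives. The steps were tested on simulated counts with the same dispersion for all genes and with animal effects only in the block setting. That test does not cover the fit without a block where animals differ, as they do here.

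Numbers in sample titles were taken as the animal. Deviations from group means correlated across genes at 0.66, 0.41 and 0.22 within BW35770, BW35772 and BW35773. Between animals r ran from -0.45 to 0.13, and centring within a group pulls these values down. The highest, 0.13, was for the control of BW35773 with the tunicamycin library of BW35772. Each r within an animal was above those between animals, by little for BW35773, and the animal was taken to pair the libraries. Chi-square per degree of freedom between libraries was at least 34, so no library copied another. P-values without the block, and those of the ratios, rest on the spread between 3 cultures a group and do not use this pairing. Those with the block rest on the spread left after the animal. Members and lists were chosen with earlier results of these data known. Named genes are the 10, Atf4, Ddit3, ratio partners, and of each list the called genes or else the 2 smallest p-values (some results are not reported here); Aspg, Nars, Got1, Glul, Eif2ak4 and Ndufa4l2 were added after their values were seen.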

Additional observations from a re-analysis of the deposited data

How the results depend on the processing

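Of the 190 log2 fold changes of the 10 genes under 19 alternatives, 171 kept direction and side of the threshold, 2 lost a call, 12 gained one and 5, all of Pycr1, changed sign. With the replicate block 5 of the 10 genes were called higher, and 7 with the exon length trend removed as well; without 1 library or 1 animal 3 to 6. Counts over all genes moved more: 415 higher and 324 lower with the replicate block, 676 and 401 in DESeq2, 728 and 752 with the exon length trend removed and the block, 199 lower with that trend removed and no block, and 46 to 806 higher and 15 to 826 lower without 1 library or 1 animal. Other pathway genes called higher numbered 7 in DESeq2 and 3 to 7 with libraries or animals left out. Those called lower numbered 2 with the block, 0 with library totals alone, 2 in DESeq2, 3 with the trend removed and the block, and 0 to 3 with libraries or animals left out. Pycr1 had a log2 fold change of 0.0437 with library totals alone and -0.26 to 0.22 with libraries or animals left out. On the same omissions Shmt1 ran from -0.26 to 0.004, Mthfd1 from -0.15 to 0.0413, Asrgl1 from -0.26 to 0.13 and Aldh1l1 from -0.48 to 0.58, and Aldh1l1 was 0.0254 with the block and 0.024 in limma-voom. The cause of these moves was not tested. The fits that left libraries out also rest on fewer of them. The ratios kept their direction under other prior counts and with each library left out. With library totals alone the median of all genes was 0.05.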
